A study of Danio rerio with 4 samples.

Results

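Genes of the egg coat and of the oocyte were followed through the comparison of sorted centroacinar cells with other sorted cells of the zebrafish pancreas. They were chosen by name: gene names that begin with zp and a digit, with zpd or with zpc, and the names dvr1, patl2, foxr1, dnd, pou5f1, lhx8a, slbp2 and cldnd. The choice was made with the values of these tables known, so every value of these genes below is a description and none was tested. By this rule, 21 of the 3020 genes listed by the authors were found, under 19 different names. Of these, 14 were egg coat genes, and 7 came from the other names and are called oocyte genes here. The exact name slbp2 was not in either table.

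The samples were centroacinar cells (CAC), which sit where the pancreatic ducts end within the acini, and the remaining sorted cells (non-CAC). Both came from adult fish of the AB strain, whose pancreas was dissected, dissociated and sorted by FACS, and the labels name no treatment. Each group had 2 libraries, and replicate 1 and replicate 2 each have a table of genes that the authors called different between the CAC and the non-CAC library of that replicate, with 1 library per group. The labels give neither the sex of the fish, nor the number pooled, nor the reporter or gate that defined the sort, and give no source of fish for each replicate. The tables hold no level per library. They give a ratio between the libraries of a replicate, whose numerator the headers do not name, so genes are placed below 1 or above 1 and not in CAC or non-CAC. Depth per library is unknown, and a gene that is not listed may have been similar in both libraries or too low to call.

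The coat of the fish egg is a fibrous layer built from zona pellucida (ZP) glycoproteins, which polymerise through a shared ZP domain. In zebrafish these genes are transcribed in the growing oocyte, whereas in some other fish part of the coat is made in the liver. The oocyte also stores messenger RNAs and regulators that act in the early embryo, such as dvr1 and pou5f1.

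All 7 members listed in the replicate 1 table lay above 1, and all 19 members listed in the replicate 2 table lay below 1. Among all 1812 listed genes of replicate 1, 66.6% lay above 1 and 33.4% below. Of the 1560 listed in replicate 2, 57.1% lay below 1 and 42.9% above. Because the rule drew on these same ratios, nothing about the members is inferred from the difference between those shares and theirs. The member ratios ran from 44.1 to 659 in replicate 1, with a median of 115 against 65.0 over all listed genes. In replicate 2 they ran from 0.000886 to 0.282, with a median of 0.0330 against 0.268 over all listed genes. The medians over all listed genes mix both sides of 1. On the log2 scale the member median in replicate 1 was 6.85, against 6.55 for all genes above 1. In replicate 2 it was -4.92, against -2.81 for all genes below 1. In bulk libraries such as these, fewer cells of a type and less RNA per cell cannot be told apart.

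**Figure D1:**
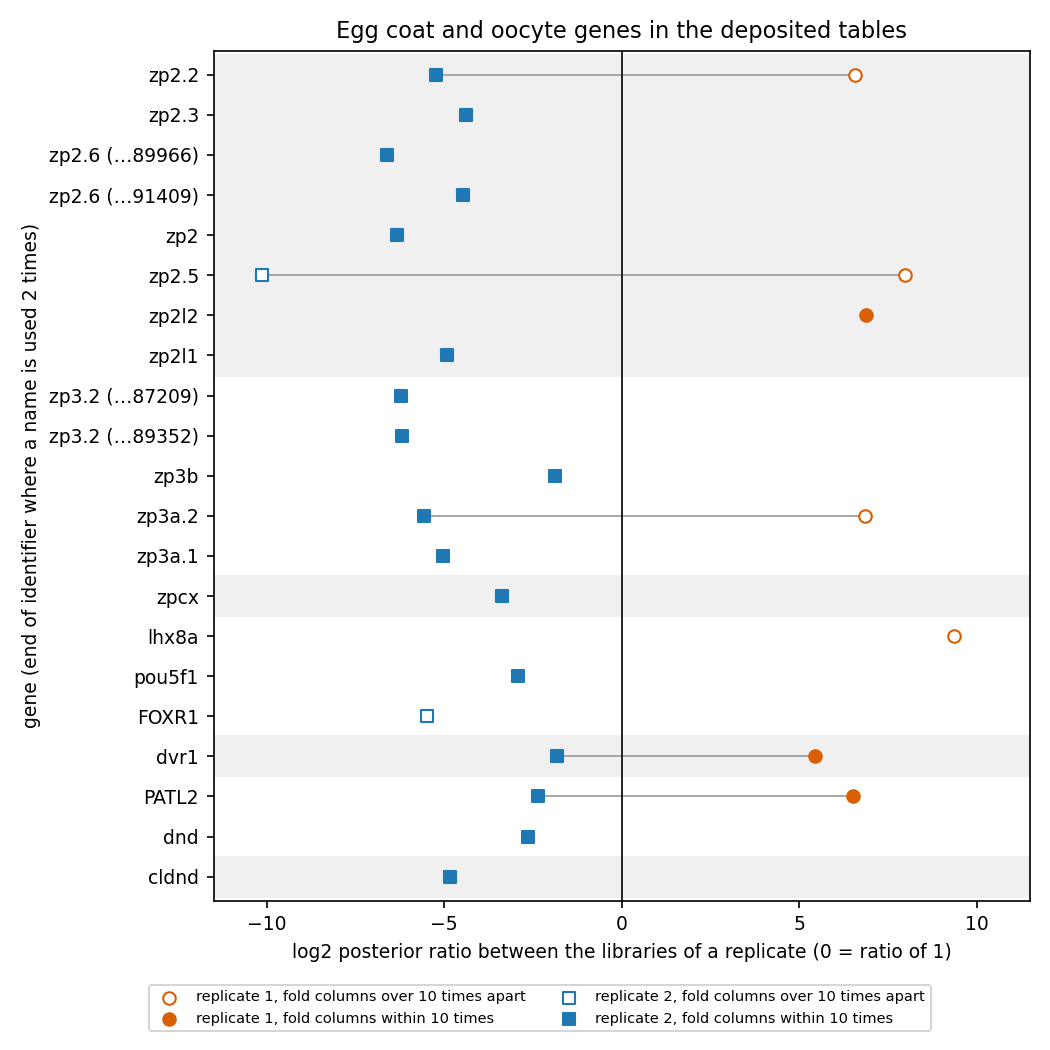
Log2 of the authors' posterior ratio for each of the 21 genes (rows, grouped by role in shaded bands); circles are replicate 1, squares are replicate 2, a line joins both values of a gene, and open symbols mark ratios whose deposited fold columns differ by over 10 times. All 7 circles lie above 0 and all 19 squares below 0, and the 5 joined genes lie on opposite sides; there is 1 ratio per gene and table and no error bar.

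Of the 21 members, 5 were listed in both tables, and all 5 changed sides: zp2.5, zp2.2, zp3a.2, PATL2 and dvr1. Across all 352 genes listed in both, 21 (5.97%) lay on opposite sides, and 19 (5.40%) went from above 1 in the first table to below 1 in the second, as these 5 did. The members were 5 of those 19 genes (26.3%). Without the members, 16 of 347 shared genes (4.61%) lay on opposite sides. The members were chosen with these ratios known, so nothing about them is inferred from these shares. The 2 tables share no library.

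Among the members, the largest difference between the tables was at zp2.5, a ZP2 type egg coat gene (Zv9 chromosome 20, 54571097 to 54572888). In the authors' deposited tables its ratio was 254 in replicate 1 and 0.000886 in replicate 2, or 7.99 and -10.14 on the log2 scale, 18.13 apart. It had the second lowest ratio of the 890 genes below 1 in replicate 2. Both sizes depend on the column used, since the uncorrected and the posterior fold differed 144 times in replicate 1 and 84.3 times in replicate 2.

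The gene zp2.2 (chromosome 20, 54548462 to 54550280) starts 22.64 kb from zp2.5. It had log2 ratios of 6.57 (replicate 1) and -5.24 (replicate 2) in the authors' deposited tables. The ZP3 type gene zp3a.2 (chromosome 20, 34012072 to 34014035) was at 6.85 and -5.57 in the same deposited tables. For both genes the fold columns differed 143 times in replicate 1 and 1.06 times in replicate 2. Their replicate 2 ratios therefore barely depend on the fold column, while their replicate 1 ratios do.

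The other 2 shared genes are not egg coat genes and had moderate ratios in replicate 2. PATL2 (chromosome 12, 14198022 to 14211632) encodes an RNA-binding repressor of translation known from frog oocytes, and dvr1 (chromosome 17, 4016810 to 4022680; gdf3 in the name table) a maternal ligand of the transforming growth factor beta family. PATL2 was at 6.53 and -2.35, and dvr1 at 5.46 and -1.82, in the authors' deposited tables of replicates 1 and 2. Neither was among the genes whose fold columns differed by over 10 times. The dvr1 gene lay near the edge of both lists, with a deposited posterior probability of difference of 0.9943 in replicate 1 and 0.9914 in replicate 2, near the lowest listed value in each table. Measured from the median of all listed genes instead of from 1, dvr1 stood at -0.56 in replicate 1 and 0.07 in replicate 2, so it was nearer to 1 than that median in both. The tables list no gene near 1, so their median is not a point of no difference, and these values do not bear on its side.

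**Figure D2:**
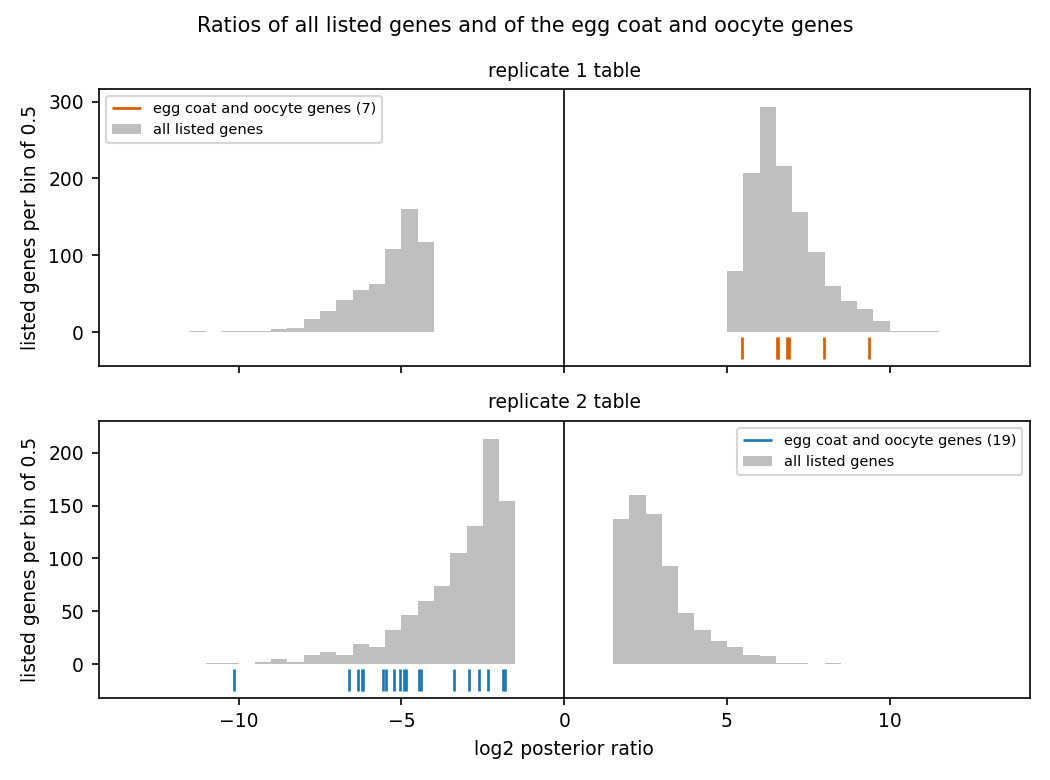
Number of listed genes per 0.5-wide bin of log2 posterior ratio (grey bars) in each replicate's table, with the egg coat and oocyte genes as coloured ticks under the axis. The 7 ticks of replicate 1 lie at 5.46 to 9.36, within the range of the listed genes above 1, and the 19 ticks of replicate 2 spread from -10.14 to -1.82; no listed gene lies near 0 in either table.

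ZP2 type genes made up 7 of the 13 egg coat members of replicate 2. They had a median log2 ratio of -5.24, and the ratio nearest to 1 was that of zp2.3, at -4.39. For comparison, the median of all 890 genes below 1 in that table was -2.81. Of these genes, 6 form an array of 24.4 kb on Zv9 chromosome 20, in the order zp2.2, zp2.3, zp2.6, a second identifier named zp2.6, zp2 and zp2.5. All 6 were listed below 1 in replicate 2, and zp2.2 and zp2.5, the first and the last of the array, were also listed above 1 in replicate 1. The 4 inner genes were not listed in replicate 1.

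Within the array, the authors' deposited table of replicate 2 gave log2 ratios of -5.24 for zp2.2, -4.39 for zp2.3, -6.60 for the first zp2.6 (ENSDARG00000089966), -4.47 for the second (ENSDARG00000091409) and -6.33 for zp2. The current name of zp2 in the name table is zp2.1, and that of the first zp2.6 is a clone name. As linear ratios, the 5 genes other than zp2.5 were 21.0 to 96.8 times from 1, and zp2.5 was 1128 times from 1. Tandem copies of one family can exchange reads in counting, so the order of ratios within the array is uncertain.

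**Figure D3:**
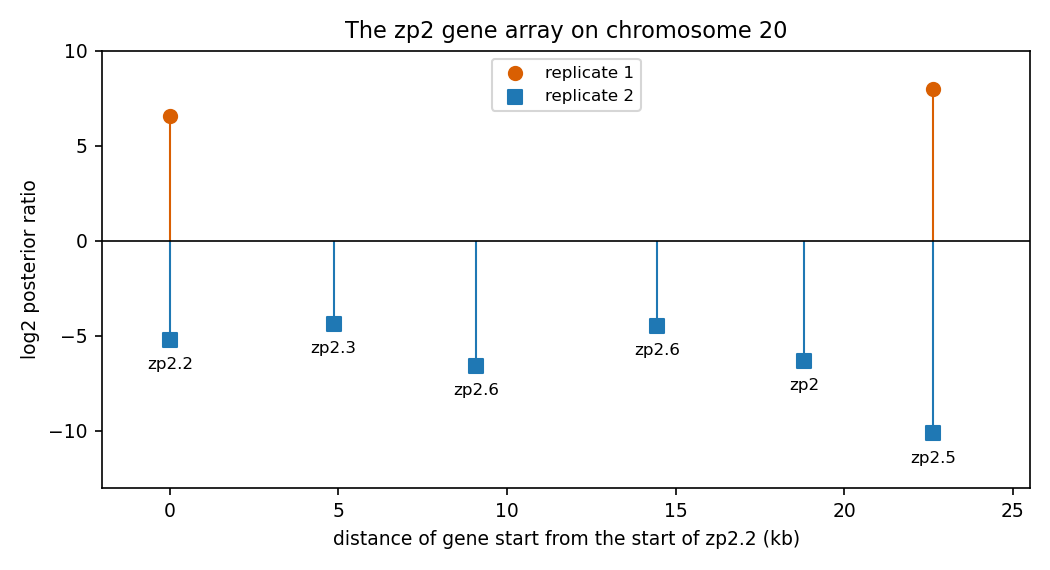
Log2 posterior ratio (vertical) of the 6 genes of the zp2 array against the distance of each gene's start from that of zp2.2 in kb (horizontal); circles are replicate 1 and squares are replicate 2. Squares lie below 0 at all 6 genes, from -4.39 to -10.14, and the 2 circles, at zp2.2 and zp2.5, lie above 0.

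Elsewhere in the genome, the related genes zp2l1 and zp2l2 were each listed once and on different sides. The authors' deposited tables gave zp2l1 (chromosome 9, 36684365 to 36686753) a value of -4.92 in replicate 2 alone and zp2l2 (chromosome 6, 9855870 to 9862692) one of 6.89 in replicate 1 alone. The fold columns of zp2l2 differed only 1.27 times, which made it the egg coat member of replicate 1 whose ratio depended least on the column.

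The 5 ZP3 type members of replicate 2 had a median of -5.57 on the log2 scale. In the authors' deposited table, zp3a.1 (chromosome 20, 34016408 to 34018378), which starts 4.34 kb from zp3a.2, was at -5.03, close to the -5.57 of zp3a.2. A pair of identifiers named zp3.2 was at -6.22 and -6.18. Both carry the locus 2347490 to 2373484 on chromosome 17, as does the clone gene zgc:173556, at -7.01, so these 3 rows may divide reads of a single cluster of copies. Such a division of reads was not tested. The gene zp3b (chromosome 2, 5895635 to 5901186) stood nearest to 1 among the egg coat members, at -1.88 in the authors' deposited table, and lay 0.02 above the median of that table. The egg coat gene zpcx (chromosome 17, 25118273 to 25121365), grouped here with neither the ZP2 nor the ZP3 type, was at -3.38.

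Egg coat loci were short. They spanned 1784 to 25995 bases with a median of 1967, against a median of 11187 over the 2559 listed genes with a readable locus, and the longest value is the locus that the zp3.2 rows share. The 21 members lie on 9 chromosomes, with 8 on chromosome 20 and 4 on chromosome 17. The 8 on chromosome 20 are the 6 genes of the zp2 array and the pair zp3a.2 and zp3a.1. All 8 were listed in replicate 2, where 56 of all 1560 listed genes were placed on that chromosome. The deposited posterior probability of equal expression was exactly 0 for 8 members in replicate 2, all of them ZP2 or ZP3 type genes, against 68 of all 1560 listed genes (4.36%). In replicate 1 it was 0 for no member, and the smallest value was 1.14e-05, at lhx8a. The members were chosen with these tables known, and several of those 8 adjoin or share a locus. Nothing is therefore inferred from the difference between their count and the share of all listed genes.

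The remaining oocyte regulators were each listed in 1 table. The LIM homeobox gene lhx8a, needed for oocyte differentiation (chromosome 2, 10997099 to 11001473), was at a ratio of 659 in replicate 1 alone in the authors' deposited table. That was the highest among the members and rank 25 of the 1206 genes above 1, with fold columns 144 times apart. In the authors' deposited table of replicate 2 alone, the forkhead gene FOXR1, a maternal-effect gene in zebrafish (chromosome 5, 60147743 to 60153128), was at -5.48, and its fold columns were 82.5 times apart. The gene pou5f1, a maternally supplied transcription factor needed when the embryonic genome is switched on (chromosome 21, 11887949 to 11892809; pou5f3 in the name table), was at -2.91 there, and dnd, an RNA-binding protein gene of germ cell survival (chromosome 14, 7366000 to 7377476), at -2.63.

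The claudin gene cldnd (chromosome 21, 25157479 to 25158258) was at -4.85 in the authors' deposited table of replicate 2 alone. Claudins are tight junction proteins of epithelia. The gene is counted with the oocyte genes here only because the name rule includes it, and its cell of origin was not tested. The nearest listed gene, zgc:112437, lies 2.8 kb away and is cldn29 in the name table. It was at -5.54 in replicate 2 and at -9.15 in replicate 1, on the same side in both, whereas cldnd was not listed in replicate 1. Reads of these adjacent claudin genes may be shared, which was not tested.

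For the 26 member rows of both tables, the nearest listed gene that is no member was taken, so adjoining members were passed over. Of these nearest genes, 6 of 7 in replicate 1 and 15 of 19 in replicate 2 lay on the member's side. Members that adjoin share such a nearest gene, and of the distinct ones 5 of 6 and 8 of 11 did so. Any listed gene would lie on that side with a share of 66.6% in replicate 1 and 57.1% in replicate 2, so nothing particular to the neighbours is read from these counts. Within 30 kb there were 5 pairs of a member and a gene that is no member. Apart from the zp3.2 rows and cldnd, they were selp, an adhesion receptor gene 27.6 kb from zp3a.2, at 6.54 in replicate 1, and pabpc4, a poly(A)-binding protein gene 1.7 kb from zpcx, at 2.19 in replicate 2 and thus on the other side.

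Some egg coat genes appear in the tables under clone names and fall outside the name rule. Of 21 symbols of the same form in a RefSeq gene table (GRCz12tu, used for names only), 5 were listed in replicate 1, 13 in replicate 2, 3 in both and 6 in neither under any name matched here. The additional egg coat genes were zpd (zgc:66449), at 7.35 in replicate 1, and zp3e (zgc:171779) and zp3f.1 (si:ch211-14a17.7), at -3.96 and -5.43 in replicate 2, in the authors' deposited tables. The oocyte gene slbp2, whose product binds histone messenger RNA in frog oocytes, was likewise in the authors' deposited table of replicate 1, as zgc:158856 at 5.43. These 4 genes were named after their values were seen. The 6 egg coat symbols in neither were zp3, zp3.1, zp3c, zp3d.1, zp3d.2 and zp3f.2. Of these, zp3 carries the synonym zp3.2 in that table, so which RefSeq gene the zp3.2 rows stand for could not be settled.

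From a list of 10 symbols of further egg coat genes, 3 were listed in a table. Of these, zpax1 (si:dkeyp-50f7.2) and zpax4 (wu:fi38e01) were in both tables and changed sides as the 5 members did. They were at 7.52 and 7.20 in replicate 1 and at -4.80 and -2.03 in replicate 2 in the authors' deposited tables, with fold columns 144 and 143 times apart in replicate 1. A related gene outside that list, zpax2 (si:ch211-223m11.2), was named after its value was seen and was at -4.47 in the authors' deposited table of replicate 2 alone. The remaining listed gene of that list, ZPLD1, encodes a ZP domain protein that is not of the egg coat and was at -4.51 in replicate 1 alone.

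A list of 82 symbols of the oocyte and germ line, older synonyms included, was matched to the rows that are not members. It had 3 such rows in replicate 1, all above 1, and 7 in replicate 2, 6 of them below 1. None was in both tables. The list also holds current names of members, such as gdf3 (dvr1) and pou5f3 (pou5f1), which could therefore not be found. Its medians were 7.15 and -2.60, against 6.02 and -1.90 over all listed genes of both sides. The genes above 1 in replicate 1 had a median of 6.55, and those below 1 in replicate 2 one of -2.81. Among all listed genes, 66.6% lay above 1 in replicate 1 and 57.1% below 1 in replicate 2. Those listed in the authors' deposited table of replicate 1 were npm2a, a maternal chromatin protein gene, at 7.81, btg4, an adaptor of messenger RNA decay, at 7.15, and a copy of the meiotic cohesin gene REC8 (rec8b) at 6.33. The fold columns were 144 times apart for npm2a and 143 times for btg4, but 1.005 times for rec8b. The lowest in the authors' deposited table of replicate 2 were h1m, the maternal linker histone gene, at -6.13, zar1, an RNA-binding regulator of oocyte translation, at -5.59, ca15b, a carbonic anhydrase gene with germ line transcripts, at -5.49, and CPEB1, a polyadenylation regulator, at -2.60. The exception above 1, named after its value was seen, was the other REC8 copy (rec8a), at 2.51. Widely used oocyte markers such as figla, gdf9, bmp15, buc, ddx4 and dazl were not listed under those names.

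Ovarian follicle somatic genes were listed in replicate 2 alone, 4 below and 5 above 1. Over all listed genes of replicate 2, 57.1% lay below 1 and 42.9% above. Nothing particular to the follicle genes is read from these counts. In the authors' deposited table the ovarian aromatase gene cyp19a1a (chromosome 18) was at -7.04, with fold columns 83.7 times apart, and hsd17b1, the cyp11a1 row and inha lay between -2.18 and -2.05. Above 1 were a second row named CYP11A1 at 3.87, the steroid hydroxylase gene cyp17a1 at 3.09, the gonadotropin receptor gene fshr at 2.56, hsd3b1 at 2.09 and star at 1.97. All but cyp19a1a, CYP11A1, cyp17a1 and fshr were named after their values were seen. Several of these steroid synthesis genes are also used by testis and interrenal tissue.

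Testis genes lay above 1 in the 4 rows listed. Among all listed genes, 66.6% lay above 1 in replicate 1 and 42.9% in replicate 2, so nothing particular to testis genes is read from these rows. The authors' deposited table of replicate 2 held TSSK6, a kinase gene of spermatids in mammals, at 3.76, the Leydig cell hormone gene insl3 at 3.38 and cyp11b2 (cyp11c1 in the name table), an enzyme gene of fish androgen synthesis, at 2.40. In replicate 1 the one listed gene was tekt3, of sperm flagella and cilia, at 9.34, with fold columns 144 times apart. Of 28 testis symbols, 4 were listed in a table, and of 7 vitellogenin genes, which encode the yolk precursors made by the female liver, none was. Of these gonad somatic and testis rows in replicate 2, only the 4 follicle rows below 1 lay on the side of the egg coat genes, whose relation to them was not tested.

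The labelled cell types were read on the same scale. Over all listed genes, 33.4% lay below 1 and 66.6% above in replicate 1. The shares in replicate 2 were 57.1% below and 42.9% above. Of 27 ductal and centroacinar symbols, 19 rows lay below 1 and none above in replicate 1, and 21 lay below and 1 above in replicate 2; all 18 genes in both tables lay below 1 in both. Of 27 acinar symbols, 21 rows lay above 1 in replicate 2 and none below, and 1 above 1 in replicate 1. The egg coat and oocyte genes thus lay on the side opposite to the ductal genes in replicate 1 and on the side of the ductal genes in replicate 2. The lists were made with earlier results of these tables known, and these counts carry no test.

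**Figure D4:**
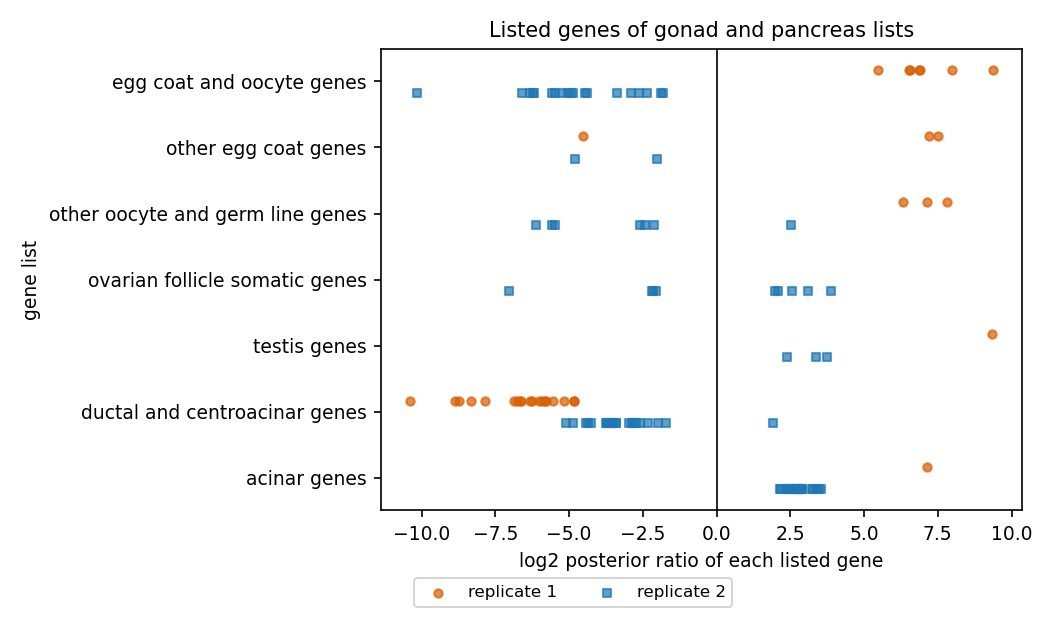
Log2 posterior ratio of each listed gene (points) in the egg coat and oocyte set and in 6 other gene lists (rows), with replicate 1 as circles and replicate 2 as squares. The ductal and centroacinar genes lie below 0 in both replicates apart from 1 square, whereas the circles of the egg coat and oocyte genes all lie above 0 and their squares all below 0.

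The fold columns set how far single ratios can be read. Of the 7 members of replicate 1, 4 had columns 143 to 144 times apart, namely lhx8a, zp2.5, zp3a.2 and zp2.2, as did 63.6% of all genes above 1 in that table, whose factors were at least 138. The remaining 3, PATL2, zp2l2 and dvr1, had factors of 1.18 to 2.08. In replicate 2, zp2.5 and FOXR1 had factors of 84.3 and 82.5, and the other 17 members had factors of 1.01 to 1.36. Among all 890 genes below 1 in that table, 98 (11.0%) had factors of at least 79.7. Nothing particular to the members is read from these counts. The side of every member was the same in both columns.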

How the data were processed

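RNA sequencing libraries of sorted CAC and non-CAC cells were compared within each replicate. The authors deposited, per the file headers, the posterior probability that a gene is equal or different (a fraction from 0 to 1) and linear ratios, a posterior and an uncorrected fold; no value per library was used. The submitters' processing notes name RSEM and the assembly Zv9 (also danRer7), with neither version nor role, and the sources used here do not name the model behind the posterior values. Loci are taken as Zv9 on that basis.

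The members and gene lists were chosen with earlier results of these data known. Ratios were put on a log2 scale with no pseudocount. Rows were matched to lists by file name, ignoring case, and by current names from an Ensembl name table, which held 1274 of 1812 and 1029 of 1560 identifiers, and from RefSeq synonyms. All members are named, with at most 4 further genes per list and table by distance from 1. The nearest listed genes that are no members are named where they lie within 30 kb. Any gene named beyond this rule is marked as named after its value was seen. No locus could be read for 335 and 168 rows, mostly because part of a gene name stood in its place; these were left out of positions. With 1 library per group in a table, no test was made. Python 3.11.15, pandas 2.3.3 and numpy 2.4.6 were used, and the counting steps were tested on simulated data. Depth is unknown, so no counting interval is given. Alternatives were the uncorrected fold, a posterior probability of equal expression under 0.001, a 4-fold minimum, centring, removal of genes with fold columns over 10 times apart, other name matching and merging of loci within 100 kb.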

Additional observations from a re-analysis of the deposited data

How the results depend on the processing

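No member had a different side between fold columns, and a 4-fold minimum left 7 members above 1 in replicate 1 and 17 of 19 below 1 in replicate 2. A posterior probability of equal expression under 0.001 left 3 of 7 members in replicate 1 and 1 of the 5 genes on opposite sides, zp2.5. Without genes whose fold columns differ by over 10 times, 3 of 7 remained in replicate 1 and 2 of the 5 on opposite sides, PATL2 and dvr1. Of all genes above 1 in replicate 1, 63.6% had such fold columns. For the other limits no share over all listed genes was counted, so nothing particular to the members is read from what remained. Centring each table on its median put 1 member below in replicate 1 (dvr1) and 2 above in replicate 2 (dvr1 and zp3b); as no listed gene lies near 1, that median is not a point of no difference, and these shifts carry no information on side. Current symbols alone left 3 of the 5 genes on opposite sides, and counting loci within 100 kb once left 12 of 19 in replicate 2. Adding names from both name tables and the zpax genes, a setting chosen after seeing the data, gave 11 members in replicate 1, all above 1, and 24 in replicate 2, all below 1, with 7 on opposite sides. In none of these settings were members in both tables on the same side.

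Over both tables together, 19 member rows lay below 1 and 7 above. Leaving out one replicate at a time gave 0 to 19 below and 0 to 7 above, because each side comes from 1 table. No paired analysis was possible because the tables hold no value per library and the counts come from no test; each ratio is already taken within a replicate. Depth is unknown, and genes missing from a table have no ratio there, so the 16 members listed once cannot be compared between replicates.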

Other observations

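Besides the 5 members and the genes zpax1 and zpax4, 12 genes lay above 1 in replicate 1 and below 1 in replicate 2. They were named after their values were seen, and they include cyp2k22, a cytochrome P450 gene, at 7.14 and -3.82 in the authors' deposited tables, timm44, a mitochondrial import gene, at 8.52 and -5.50, lmo7b at 5.61 and -3.12, and hs3st2, a heparan sulfate sulfotransferase gene, at 7.35 and -2.47. The fold columns differed by over 10 times in both tables for timm44 and in replicate 1 for hs3st2, so the sizes of these ratios depend on the column. The opposite change, below 1 in replicate 1 and above 1 in replicate 2, was seen for 2 genes, cldn19 at -5.44 and 3.51 and si:dkey-235d18.6 at -5.01 and 5.78 in the same deposited tables, with fold columns over 10 times apart in replicate 2 for the latter.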
